A study of Caenorhabditis elegans with 8 samples.

Results

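The genes rps-0 to rps-30 encode 31 proteins of the small subunit of the cytoplasmic ribosome in Caenorhabditis elegans. They were taken by their sequence names, ignoring case, from a list of this gene family in numeric order. All 31 were found among the 8922 genes of the deposited table of RNA polymerase II calls. The gene table of RefSeq assembly WBcel235 gives 4 of them another symbol: rps-0 (B0393.1) is rpsa-1 there, rps-1 (F56F3.5) is rps-3A, rps-22 (F53A3.3) is rps-15A and rps-30 (C26F1.4) is fau-1. The series located RNA polymerase II by chromatin immunoprecipitation and sequencing (ChIP-seq) with an antibody to AMA-1, its largest subunit, in early embryos with and without RNA interference against sig-7. The product of sig-7 is a cyclophilin of the nucleus that also carries an RNA-binding domain.

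Every library came from strain KW2309, whose alleles the labels do not name. Embryos, collected between the 1-cell stage and the 350-cell stage, were obtained by bleaching adults grown for 72 hours and were fixed in 2% formaldehyde for 22 minutes. Controls received L4440, the empty vector of feeding RNAi, and the other embryos sig-7 RNAi. Each condition had 2 AMA-1 ChIP libraries and 2 input libraries. A mixture of stages was pooled in each library, so a call averages over blastomeres of many lineages and over the germline precursors.

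The small subunit binds messenger RNA, scans for the start codon and holds the site where codons are read. Its proteins are needed in every growing cell, in equal numbers, and their genes are among the most strongly transcribed in eukaryotes. Embryos of this worm start with ribosomes laid down by the mother, and their own genome becomes active during the stages sampled. RNA polymerase II transcribes the protein genes, while RNA polymerase I makes the large ribosomal RNAs.

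The only value per gene and condition is a call. It is 1 where both replicates of the condition had a peak that overlapped the gene by at least 250 bp or 45% of its length. It is 0 where at most 1 replicate did. Peak heights, read counts and values per replicate were not analysed here, so a call gives the presence of polymerase above a threshold and not its amount. No error between replicates and no test of a difference can be had from it, and counts of genes are given as descriptions beside the share of all protein-coding genes with the same call. A gene that is not in the table is called "not listed".

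In control embryos 31 of the 31 genes were called, against a background of 22.8% of the 19983 protein-coding genes. In sig-7(RNAi) embryos 30 were called, against 23.9%. In both conditions 30 were called, where the background was 16.8%. A single gene, rps-23 (F28D1.7), was called in control only, a class that held 6.03% of protein-coding genes. None was called in sig-7(RNAi) only, against 7.05%, and none was unlisted, against 70.1%. The sig-7(RNAi) set retained 96.8% of the rps genes of the control set, while over all protein-coding genes it retained 73.6%. High retention was not particular to the rps genes. Among the related lists described below it was 93.2% for the large subunit (41 of 44) and 100% for RNA polymerase I (5 of 5). For small-subunit assembly factors it was 87.5% (14 of 16), and for the mitochondrial small subunit 85.7% (12 of 14). For the small-subunit genes outside the rps-0 to rps-30 series it was 50% (1 of 2). The set therefore stood above the background in both conditions, and 1 gene separated the 2 conditions.

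The proteins at the decoding centre and the entrance for messenger RNA held the one difference. Of these 5 genes, 5 were called in control and 4 in sig-7(RNAi). rps-2 (C49H3.11) and rps-3 (C23G10.3) encode proteins that line the entry channel, and both had a call of 1 in control and 1 in sig-7(RNAi). rps-9 (F40F8.10), whose protein takes part in the accuracy of decoding, was called in both. rps-30 encodes a protein made as a fusion with a ubiquitin-like part, and it too was called in both. rps-23 encodes the protein that reaches into the decoding centre itself, and its calls were 1 in control and 0 in sig-7(RNAi). A call of 0 leaves room for a peak in 1 of the 2 sig-7(RNAi) replicates, so a loss of polymerase from rps-23 cannot be read from it.

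All 8 genes for proteins of the platform and the exit side of the messenger RNA channel were called in both conditions. They were rps-0, whose human counterpart is also known as the laminin receptor, rps-1, rps-5 (T05E11.1), rps-14 (F37C12.9), rps-21 (F37C12.11), rps-26 (F39B2.6), rps-27 (F56E10.4) and rps-28 (Y41D4B.5). The proteins of rps-5, rps-14, rps-26 and rps-28 lie along the path by which messenger RNA leaves the subunit. rps-27 encodes a zinc-binding protein. No member of this group differed in its call between conditions.

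All 10 genes for proteins of the head were likewise called in both. The head is the part that swivels as transfer RNA moves through the ribosome. rps-16 (T01C3.6) encodes a protein whose tail touches the transfer RNA in the peptidyl site, and those of rps-15 (F36A2.6) and rps-18 (Y57G11C.16) face the large subunit. rps-19 (T05F1.3) corresponds to the human gene most often mutated in Diamond-Blackfan anaemia. rps-10 (D1007.6) and rps-20 (Y105E8A.16) encode proteins that are ubiquitylated on stalled ribosomes in yeast or human cells. The proteins of rps-12 (F54E7.2), rps-17 (T08B2.10), rps-25 (K02B2.5) and rps-29 (B0412.4) complete this group, with rps-12 in the beak of the head and rps-29 binding zinc.

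The remaining 8 genes encode proteins of the body and foot, and all 8 were called in both conditions. rps-6 (Y71A12B.1) encodes the classical substrate of S6 kinase downstream of TOR signalling. rps-4 (Y43B11AR.4), rps-7 (ZC434.2), rps-8 (F42C5.8), rps-11 (F40F11.1), rps-13 (C16A3.9), rps-22 and rps-24 (T07A9.11) encode proteins that pack against the ribosomal RNA, several of them early in assembly. Across the 4 groups, control and sig-7(RNAi) calls therefore matched at every gene but rps-23.

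**Figure D1:**
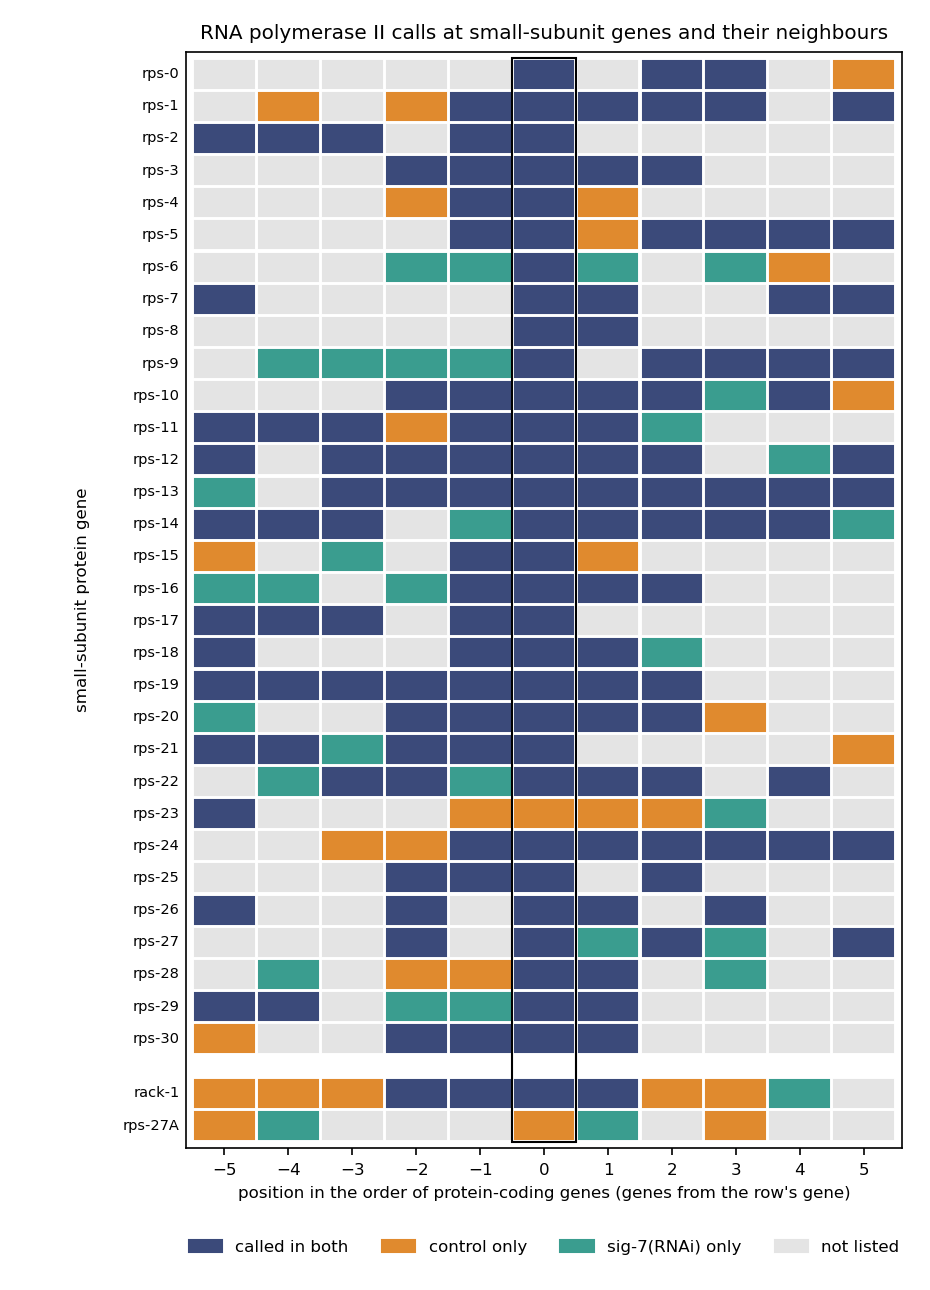
Calls at each small-subunit protein gene (boxed column, position 0) and at the 5 protein-coding genes on either side of it in the order of the RefSeq table, one row per gene. Colours give the class of call. 30 of the 31 rps genes are called in both conditions and rps-23 in control only, and the lower rows show rack-1 and rps-27A, the other small-subunit protein genes.

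The table does not give the extent of peaks, so the genes beside each member were examined for calls that a broad peak could share. Left and right below follow the gene order and not the direction of transcription. No rps gene was adjacent to another, and they had 62 distinct adjacent protein-coding genes. Of these 62, 38 had a call of 1 in each condition, 6 were control-only, 7 were sig-7(RNAi)-only and 11 were not listed. Over all protein-coding genes the shares were 16.8% in both, 6.03% control-only, 7.05% sig-7(RNAi)-only and 70.1% not listed. The calls of the 2 conditions differed at 13 of the 62 neighbours and at 1 of the 31 rps genes. These totals are unlike, and the difference was not tested.

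At rps-23 the control-only call was shared with genes to its right. The adjacent gene dpm-3 (F28D1.11), for a subunit of dolichol-phosphate mannose synthase, was also called in control only, as was acs-20 (F28D1.9), for an acyl-CoA synthetase, beyond it. The snoRNA gene F28D1.13 inside rps-23 had the same call. On this side the run of control-only calls ended at gex-3 (F28D1.10), which was called in sig-7(RNAi) only. Among the 1204 protein-coding genes called in control only, the median unbroken run of such genes was 2.0 and the longest 5, and 559 stood alone. Whether 1 broad peak or several made these calls cannot be told from the table.

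A group of 4 rps genes was called in control with neither adjacent protein-coding gene called there: rps-0, rps-6, rps-9 and rps-27. rps-0 stood alone in both conditions, since its neighbours B0393.8 and rbg-3 (B0393.2) were not listed. At rps-6 both neighbours, usp-3 (Y71A12B.9), for a ubiquitin-specific protease, and Y71A12B.10, had a call of 1 in sig-7(RNAi) alone. The left neighbour of rps-9, W10C6.2, was called in sig-7(RNAi) only, as were the next 3 genes in that direction in the plot of neighbouring calls. The right neighbour of rps-9, lsm-1 (F40F8.9), for a subunit of the complex that promotes decapping of messenger RNA, was not listed. At rps-27 the left neighbour daam-1 (F56E10.2), a formin gene, was not listed, and the right neighbour picd-1 (F56E10.1) was called in sig-7(RNAi) only. The control calls at these 4 genes therefore do not coincide with a call at an adjacent protein-coding gene.

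Further rps genes called in both conditions adjoined a gene called in a single one. In control only these were deb-1 (ZC477.9), the vinculin gene, beside rps-4, clc-9 (T05E11.2), for a claudin-like protein, beside rps-5, F36A2.9 beside rps-15 and nhr-274 (Y41D4B.21), a nuclear hormone receptor gene, beside rps-28. In sig-7(RNAi) only they were acs-4 (F37C12.7), for an acyl-CoA synthetase, beside rps-14, polh-1 (F53A3.2), for DNA polymerase eta, beside rps-22 and snt-2 (F42G9.7), a synaptotagmin gene, beside rps-29. Together with rps-6, rps-9 and rps-27, an adjacent control-only gene was seen at 4 rps genes called in both, and an adjacent sig-7(RNAi)-only gene at 6. At these 10 rps genes the calls of the rps gene and of a neighbour were unlike in 1 condition. The same count around other genes called in both is not given here, so these counts have no background.

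At 12 rps genes both adjacent protein-coding genes had a call of 1 in each condition: rps-1, rps-3, rps-10, rps-11, rps-12, rps-13, rps-16, rps-18, rps-19, rps-20, rps-24 and rps-30. The longest such stretch, of 11 protein-coding genes, held rps-13, and the next, of 10 and 9, held rps-19 and rps-24. rps-19 shared its stretch with lin-53, which encodes a histone-binding chromatin protein, and rps-24 with nog-1, for a GTPase of large-subunit assembly. The median stretch over the 30 rps genes called in both was 3.0 genes, the same as the 3.0 over all 3360 protein-coding genes called in both. A further 14 rps genes had 1 adjacent gene called in both, and 5 had none, namely the 4 above and rps-23.

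Other genes of the ribosome lay directly beside 4 rps genes. rpl-24 (D1007.12), rpl-36 (F37C12.4) and rpl-39 (C26F1.9), which encode proteins of the large subunit, adjoined rps-10, rps-14 and rps-30. fib-1 (T01C3.7), which encodes fibrillarin, the methyltransferase of small nucleolar ribonucleoproteins, adjoined rps-16. Each of these 4 genes was called in both conditions, like the rps gene beside it. A shared peak could give both calls of such a pair.

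With both neighbours considered, 27 of the 31 rps genes called in control had at least 1 adjacent gene called there, and 17 had 2. Among other protein-coding genes called in control, 82.8% had at least 1 and 27.9% had 2, against 54.8% of the rps genes with 2. In sig-7(RNAi), 29 of 30 had at least 1 and 16 had 2, while other called genes had at least 1 in 85.5% and 2 in 38.4%, against 53.3% of the rps genes. Around the 30 rps genes called in both, 70% of the directly adjacent genes were called in control and 75% in sig-7(RNAi). Around the 3330 other protein-coding genes called in both, these shares were 59.8% and 65.4%. For the genes 2 away the shares were 55% and 56.7% around rps genes, against 41.9% and 47.5% around the others. At a distance of 3 genes, 30% and 38.3% were called around rps genes, and 35.8% and 38.7% around the others. Farther out the order was not steady. At a distance of 4 genes 28.3% and 33.3% were called around rps genes, against 32.2% and 33.7%. For the genes 5 away the shares were 40% and 38.3%, against 29.4% and 30.3%. At a distance of 6 genes the shares were 43.3% and 45%, against 28.8% and 29.3%. For the genes 7 away they were 33.3% and 33.3%, against 28.6% and 29%. For those 8 away they were 28.3% and 36.7%, against 28.2% and 29%. At a distance of 9 genes they were 25% and 33.3%, against 28.1% and 29%. At a distance of 10 genes the shares were 36.7% and 41.7% around rps genes, and 28.1% and 29.4% around the others. These are descriptions of 60 positions per distance, and the differences were not tested.

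**Figure D2:**
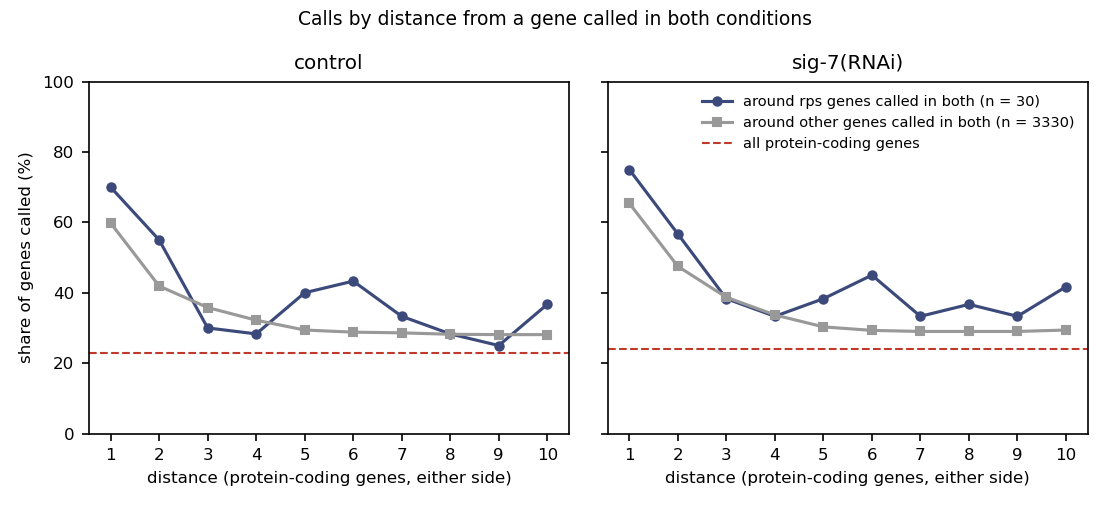
Share of protein-coding genes called (%, y axis) by distance in genes on either side (x axis) from the 30 rps genes called in both conditions (circles) and from 3330 other protein-coding genes called in both (squares), in control and in sig-7(RNAi). The dashed line is the share of all protein-coding genes called, 22.8% in control and 23.9% in sig-7(RNAi). Around rps genes the share falls from 70% and 75% at the adjacent gene to 30% and 38.3% at a distance of 3 genes. It then varies without a steady course, with 43.3% and 45% at 6 genes, 25% and 33.3% at 9 and 36.7% and 41.7% at 10. Around the other genes it goes from 59.8% and 65.4% at the adjacent gene to 28.1% and 29.4% at 10.

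Genes for small RNAs lay inside 6 rps genes in assembly WBcel235. They comprised 7 snoRNA genes and 1 miRNA gene. The snoRNAs guide the modification of ribosomal and other RNAs, and many are released from the introns of host genes. Y43B11AR.7 lay in rps-4, F54E7.10 and F54E7.11 in rps-12, C16A3.11 in rps-13, F28D1.13 in rps-23 and B0412.6 and B0412.7 in rps-29. The miRNA gene mir-354 (Y105E8A.31) lay in rps-20. All 8 had the call of their host, in both conditions for 7 of them and in control only for F28D1.13. Inside other called protein-coding genes, 113 of 235 snoRNA and miRNA genes, or 48.1%, had the call of the host. Host lengths were not compared, and a small gene inside a short host is covered by the same peak more readily than one inside a long host.

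The small subunit has a pair of further proteins outside the rps-0 to rps-30 series. rps-27A (H06I04.4), earlier named ubl-1, encodes a ribosomal protein made as a fusion with a ubiquitin-like part, and it was called in control only. Its left neighbour H06I04.6 was not listed and its right neighbour H06I04.3 was called in sig-7(RNAi) only, so its control-only call was not part of a stretch. rack-1 (K04D7.1), for the scaffold protein on the head of the subunit, was called in both, as were its neighbours pxf-1 (T14G10.2) and mspn-1 (K04D7.2). With these added, 31 of 33 small-subunit genes had calls in both conditions, 2 were control-only and 0 were sig-7(RNAi)-only. The 2 control-only genes were thus rps-23 and rps-27A.

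The large subunit held genes in every class of call. Of 52 genes with names in rpl, rla or rplp, 41 had calls in both conditions, 3 were control-only, 4 were sig-7(RNAi)-only and 4 were not listed. The control-only share was 5.77% and the sig-7(RNAi)-only share 7.69%, near the 6.03% and 7.05% of all protein-coding genes. The share called in both, 78.8%, was above their 16.8%. The control-only genes were rpl-5 (F54C9.5), whose protein binds the smallest ribosomal RNA of the large subunit, rpl-11.2 (F07D10.1) and rpl-35A (F10E7.7). Those called in sig-7(RNAi) only were rpl-9 (R13A5.8), rpl-14 (C04F12.4), rpl-23A.2 (F52B5.6) and rpl-34 (C42C1.14). rpl-11.2 lay between vha-15 and AH9.1, both called in control only. rpl-35A adjoined F10E7.9, called in control only, and rpl-23A.2 adjoined cep-1, called in sig-7(RNAi) only. No adjacent gene shared the call of rpl-5, rpl-9, rpl-14 or rpl-34. Of the rps genes 96.8% were called in both, and the difference from the large subunit was not tested.

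The genes for small-subunit proteins of the mitochondrial ribosome were nearer to the background. Of 29 mrps genes, 12 were called in both, or 41.4%, against 16.8% of all protein-coding genes, and 13 were not listed. mrps-10 (Y37D8A.18) and mrps-18B (T13H5.5) were called in control only, and mrps-7 (Y57G11C.34) and mrps-18C (C26E6.6) in sig-7(RNAi) only. The cytoplasmic and mitochondrial small subunits thus differed by 30 of 31 against 12 of 29 genes called in both.

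Of 22 factors of small-subunit assembly and the nucleolus, 14 had calls in both conditions, 2 were control-only, 4 were sig-7(RNAi)-only and 2 were not listed. riok-1 (M01B12.5), for a kinase of late small-subunit maturation, was called in control only, as was ncl-1 (ZK112.2), whose product represses ribosomal RNA synthesis and nucleolar size. Those in sig-7(RNAi) only were rbd-1 (T23F6.4) and tsr-1 (F53G2.6), for factors of small-subunit assembly, nol-58 (W01B11.3), for a core protein of box C/D small nucleolar ribonucleoproteins, and lpd-6 (K09H9.6). Of 6 genes for subunits of RNA polymerase I, 5 were called in both, or 83.3%, and rpoa-2 (F14B4.3) was not listed. No direction is read from numbers this small.

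**Figure D3:**
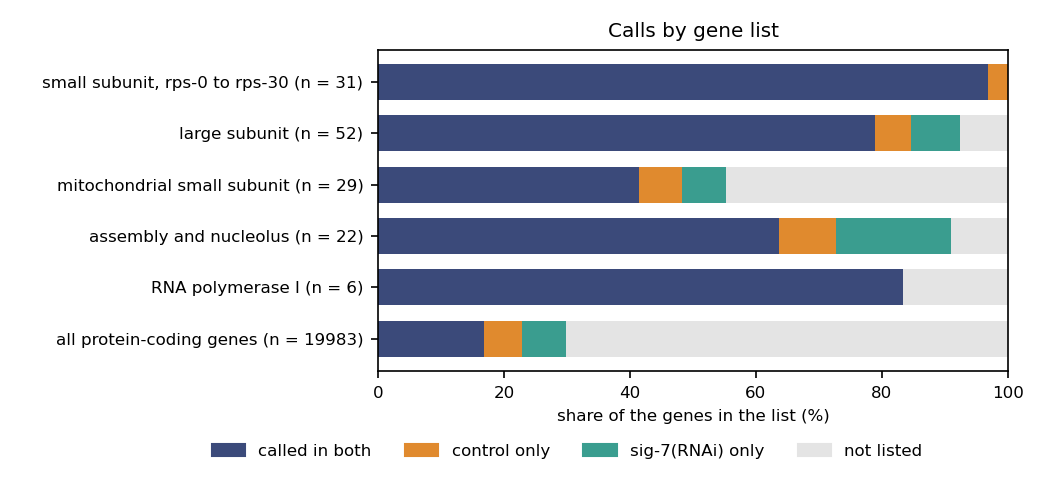
Share of genes (%, x axis) in each class of call, given by colour, for each list with its number of genes. The rps-0 to rps-30 bar is filled to 96.8% by genes called in both, against 78.8% of large-subunit genes, 41.4% of mitochondrial small-subunit genes and 16.8% of all protein-coding genes.

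For the series as a whole, ama-1 (F36A4.7) was called in both conditions and sig-7 (F39H2.2) in sig-7(RNAi) only. A polymerase call does not measure the transcript, so it does not check the knockdown. Of 10 zygotic genes of early embryos, 5 were called in control and 4 in sig-7(RNAi), or 50% and 40%. Over all protein-coding genes the shares were 22.8% and 23.9%. The muscle factor gene hlh-1, the posterior homeobox gene pal-1, nhr-2 and vet-2 were called in both, and elt-1 in control only. The others, end-1, end-3, pes-10, sdz-23 and tbx-35, were not listed. Of 5 genes of the maternal germ line, 0 were called in control and 4 in sig-7(RNAi), namely gld-1, glp-1, puf-8 and glh-1. The remaining gene, rme-2, was not listed. Of 7 genes of the maternal intestine, 0 and 1 were called (vit-1), of 3 sperm genes none, and of 3 adult cuticle genes 0 and 1 (bli-2). The part of the germline difference in the calls at ribosomal genes was not tested.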

How the data were processed

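Per the file headers, the authors used the broad option of MACS2, with a cutoff of 0.01, to call peaks, and joined the replicates into a deposited call of 0 or 1 per gene and condition. Per the submitters' processing notes, Bowtie 1.0.1 and build ce10 were used. Which MACS2 version, which annotation and what part the inputs had is not given in the sources used here. Depth is unknown, and p-values and intervals are not given.

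Sequence names were matched, ignoring case, to the RefSeq gene table of WBcel235 (8824 matched, 98 did not). As its build is not that of the calls, it supplied names, kinds of gene, gene order and which genes lie inside others, and no coordinates or lengths. A stretch is an unbroken run of adjacent protein-coding genes with 1 call. Counting was tested on simulated calls (Python 3.11.15, pandas 2.3.3). Members and lists were chosen with earlier results of these data known. Of the assembly list's names, 5 were not matched. The rplp prefix and the name rps-27A were added to match the table's symbols. Named genes are all members, adjacent genes with another call, and up to 6 genes of a list called in a single condition. rpl-9 and the other neighbours, stretch members and nested genes named fall outside this rule and were chosen after their values were seen. Genes of the zygotic and germ-line lists are all named. Replicates carry no statement of separate cultures in the labels. Sequence features and lengths were planned but not analysed here.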

Additional observations from a re-analysis of the deposited data

How the results depend on the processing

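The calls of the 31 rps genes did not depend on the case of names or on adjacent members, of which there were none. With rack-1 and rps-27A added, genes called in control only went from 1 to 2, and the share of control calls also called in sig-7(RNAi) was 93.9%. Without the 6 genes that hold another gene, a setting chosen after seeing the data, 25 of 25 had calls in both conditions, 0 were control-only, and that share was 100%. Limited to rps genes with no adjacent protein-coding gene called in the same condition, 4 were called in control and 1 in sig-7(RNAi). The background depended on the genes counted. Over all genes of the gene table it was 14.4% in control, 13.9% in sig-7(RNAi) and 9.52% in both, and 66.1% of control calls were also called in sig-7(RNAi). Without piRNA and ncRNA genes the first 3 shares were 21%, 22.3% and 15.6%. Over listed protein-coding genes alone they were 76.4%, 79.8% and 56.3%, a background that by construction holds no gene without a call. Without ribosomal protein genes it was 22.6%, 23.6% and 16.5%. No paired analysis was possible because a call already joins both replicates. For the same reason leaving out a replicate, stricter peaks and other overlap rules were not run. Depth is not in the table, and 1 replicate may hold a peak where the call is 0.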
